A study of Rattus norvegicus with 54 samples.

Results

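The interferon-stimulated genes described here are a set of 44 rat genes chosen by symbol, which cover nucleic acid sensors, interferon-responsive transcription factors, antiviral effectors, genes of ISG15 and ADP-ribose conjugation, inducible GTPases, chemokines and antigen processing. Of the 44, 40 were measured in both organs, out of 12628 genes with a symbol in lung and 12178 in right ventricle (RV). Ifi44l, Ddx60, Xaf1 and Herc6 were not analysed here. All 40 passed the filter on low counts in lung and 39 passed it in RV, where Ifit1 did not. Bulk mRNA sequencing was done on lung and RV of Sprague Dawley rats at 6 weeks of age, 54 libraries in all, to ask how life at simulated altitude from conception onward changes the transcriptome of each organ.

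The H-H rats were conceived, born and raised in a hypobaric chamber that simulated 9000 feet, which corresponds to breathing 15% oxygen, and the RA-RA rats spent the same period in room air. The labels name no transgene or drug. Both parents of a litter had been kept in its condition from an age of 7 weeks and were mated at an age of 10 weeks. Weaning took place on day 21. Lung came from 14 H-H rats (6 from 4HH, 8 from 3HH) and 15 RA-RA rats (7 from 6RARA, 8 from 4RARA), where these names are those of litters. RV came from 14 H-H rats (6 from 4HH, 8 from 3HH) and 11 RA-RA rats (4 from 6RARA, 7 from 4RARA), and 25 animals gave both organs. Each treatment held 2 litters, so litter is nested in treatment. The animals of a litter are siblings, and p-values measure the spread among animals of few litters. Males made up 7 of 14 H-H lungs, 7 of 15 RA-RA lungs, 7 of 14 H-H RVs and 5 of 11 RA-RA RVs.

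Type I interferons signal through a receptor whose kinases activate the transcription factor complex ISGF3, which holds STAT2 and IRF9 and binds interferon-stimulated response elements (ISREs) in promoters. Interferon gamma acts on other promoter elements, the gamma-activated sites (GAS). The induced genes detect viral nucleic acid, block viral replication and feed antigen to T cells, and many of them are also transcribed at a low tonic level in the tissues of healthy animals.

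Lung libraries held 1026832 to 23852403 counted reads and RV libraries 6104675 to 16298663. Lung markers dominated lung and cardiac markers dominated RV, with some libraries apart. Both libraries of 4HH37 held transcripts of the other organ: summed cardiac markers reached 13766 CPM (a gene's counts scaled to library size, with TMM factors within each organ) in its lung, where the other lungs of its litter held at most 96.8 CPM. Summed lung epithelial markers reached 15890 CPM in its RV. Lung 4HH39 had 99719 CPM of the lysozyme gene Lyz2, where the other lungs of its litter had at most 29889 CPM, while the macrophage markers Csf1r, Mrc1, Cd68 and Cd163 were the lowest of the litter in it. Another macrophage marker, Vsig4, was the highest of the litter in it, at 8.08 CPM against at most 3.47 CPM in the others. The endothelial sum of lung 4HH39, 727 CPM, was the lowest of the litter. Lung 6RARA66 had the smallest library and 59.2% intergenic reads, and lung 6RARA68 had the lowest endothelial sum of its litter, 1544 CPM. All 4 RVs of 6RARA held less cardiac and more endothelial and lung epithelial marker RNA than those of 4RARA, with values given below. The libraries called apart hereafter are the lungs of 4HH37, 4HH39, 6RARA66 and 6RARA68 and the RVs of 4HH37 and 6RARA. Lung 3HH27 is not among them. It had the lowest endothelial sum of its litter, 1634 CPM, and summed macrophage and monocyte markers of 42345 CPM. The other lungs of 3HH had at most 24549 CPM of the latter.

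The set was chosen by symbol as interferon-stimulated genes, so promoter motifs of that response describe it and are no independent support for the choice. Sequences are RefSeq promoters of the GRCr8 build, 250 bases before to 50 after the annotated start, and 30 of the 40 measured genes had one. For each gene of the set a single promoter was used, while the shares over all count every promoter listed. The ISRE core was searched as GAAANNGAAA and GAS as TTCNNNGAA, each on both strands, and matches may overlap. The ISRE core occurred in 20 of 30 promoters (66.7%), against 3.92% of all 33469 rat promoters in the table. GAS occurred in 10 of 30 (33.3%), against 8.87% of all. Both motifs occurred in 6 of 30 (20%), against 0.514% of all, and neither in 6 of 30 (20%), against 87.7% of all. Of the promoters, 5 are printed in lower case with motif matches in capitals: Irf7 and Ifit3 with an ISRE core alone, Igtp with a GAS just upstream of an ISRE core, and Oas1b and Bst2 with a pair of overlapping cores each. All 5 hold an ISRE core and passed the test of lung to RV agreement described below. Other genes that passed that test have no core in this window. Irf1 and Irf9 have a GAS alone, and Mx1, Oasl and Psmb9 have neither motif. A link between motif and agreement was not tested.
Irf7 (chr1:205799974-205800273, minus strand): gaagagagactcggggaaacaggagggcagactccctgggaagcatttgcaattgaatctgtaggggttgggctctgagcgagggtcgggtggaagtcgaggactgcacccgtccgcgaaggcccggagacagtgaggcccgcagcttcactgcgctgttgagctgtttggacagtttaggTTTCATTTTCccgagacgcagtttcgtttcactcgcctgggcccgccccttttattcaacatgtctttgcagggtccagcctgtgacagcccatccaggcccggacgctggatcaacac
Ifit3 (chr1:241527076-241527375, plus strand): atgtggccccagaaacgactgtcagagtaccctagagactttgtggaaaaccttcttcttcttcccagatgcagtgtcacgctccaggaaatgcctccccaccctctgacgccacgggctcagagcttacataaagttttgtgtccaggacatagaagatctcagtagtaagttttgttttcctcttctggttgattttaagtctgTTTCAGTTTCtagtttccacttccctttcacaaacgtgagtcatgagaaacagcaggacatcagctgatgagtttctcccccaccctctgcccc
Igtp (chr10:42874797-42875096, plus strand): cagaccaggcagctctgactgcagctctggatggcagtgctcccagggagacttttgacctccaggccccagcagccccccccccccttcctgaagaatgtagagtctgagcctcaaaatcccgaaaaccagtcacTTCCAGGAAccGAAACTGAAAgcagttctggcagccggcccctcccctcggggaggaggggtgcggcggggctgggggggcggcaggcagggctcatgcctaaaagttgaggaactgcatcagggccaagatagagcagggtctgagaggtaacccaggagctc
Oas1b (chr12:41395803-41396102, minus strand): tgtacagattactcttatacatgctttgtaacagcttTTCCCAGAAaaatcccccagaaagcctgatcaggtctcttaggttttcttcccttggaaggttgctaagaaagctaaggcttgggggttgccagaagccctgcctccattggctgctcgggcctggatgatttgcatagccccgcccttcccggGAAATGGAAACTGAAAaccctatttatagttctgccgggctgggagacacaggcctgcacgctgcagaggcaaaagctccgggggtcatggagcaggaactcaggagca
Bst2 (chr16:18254918-18255217, minus strand): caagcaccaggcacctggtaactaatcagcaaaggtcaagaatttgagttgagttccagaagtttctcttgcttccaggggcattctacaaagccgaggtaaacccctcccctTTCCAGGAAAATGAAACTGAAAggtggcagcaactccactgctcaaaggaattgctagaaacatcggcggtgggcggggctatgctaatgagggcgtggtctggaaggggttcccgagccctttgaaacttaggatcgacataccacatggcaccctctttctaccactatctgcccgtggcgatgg

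In Irf7 and Ifit3 the core lies on the opposite strand and starts at −69 and −44 from the transcription start. The core of Igtp starts at −103. In Oas1b the cores start at −59 and −53, with a separate GAS further upstream, and in Bst2 they start at −131 and −125, the first overlapping a GAS. Cores also lay in the promoters of Oas1a, Oasl2, Ifih1, Eif2ak2, Ifi27, Ifi44, Isg20, Rsad2, Dtx3l, Parp14, Gbp2, Gbp5, Cxcl10, Psmb8 and Tap1. GAS without an ISRE core occurred in Irf1, Irf9, Ifi47 and Cxcl9, and neither motif in Ifi35, Mx1, Oasl, Parp9, Psmb9 and Stat2. A match is a description of letters in this window, and these letters were not tied to any difference reported here. Promoter entries were not used for Ddx58, Dhx58, Ifi27l2b, Ifit1, Ifit2, Isg15, Mx2, Oas2, Rtp4 and Usp18.

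Per length, the order of levels was alike at the top in both organs. In RPKM (CPM per kilobase of exon), Ifi27, a mitochondrial membrane protein, averaged 496 ± 348 in lung (SD, n = 29) and 430 ± 271 in RV (SD, n = 25). Bst2, the tetherin that holds budding virions at the cell surface, averaged 382 ± 144 in lung and 258 ± 176 in RV. Next in lung came Psmb9 at 61.9 ± 23.2 and Gbp2 at 55.8 ± 18.3 RPKM, and next in RV came Ifi27l2b at 86.9 ± 74.6 and Ifit2 at 35.8 ± 20.6 RPKM. The lowest was Ifit1 in lung, 1.89 ± 3.66 RPKM, and Oas2 in RV, 0.706 ± 0.510 RPKM. In lung the only step between neighbours in this order that was wider than their SDs was that from Bst2 to Psmb9, and in RV there was none. Mean CPM was higher in lung than in RV for 38 of 40 genes in 4HH, 35 in 3HH, 13 in 6RARA and 34 in 4RARA. The median lung to RV ratio was 2.04 in 4HH, 1.97 in 3HH, 0.869 in 6RARA and 2.05 in 4RARA. The organs were normalised separately, so these ratios set 2 scales side by side.

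**Figure D1:**
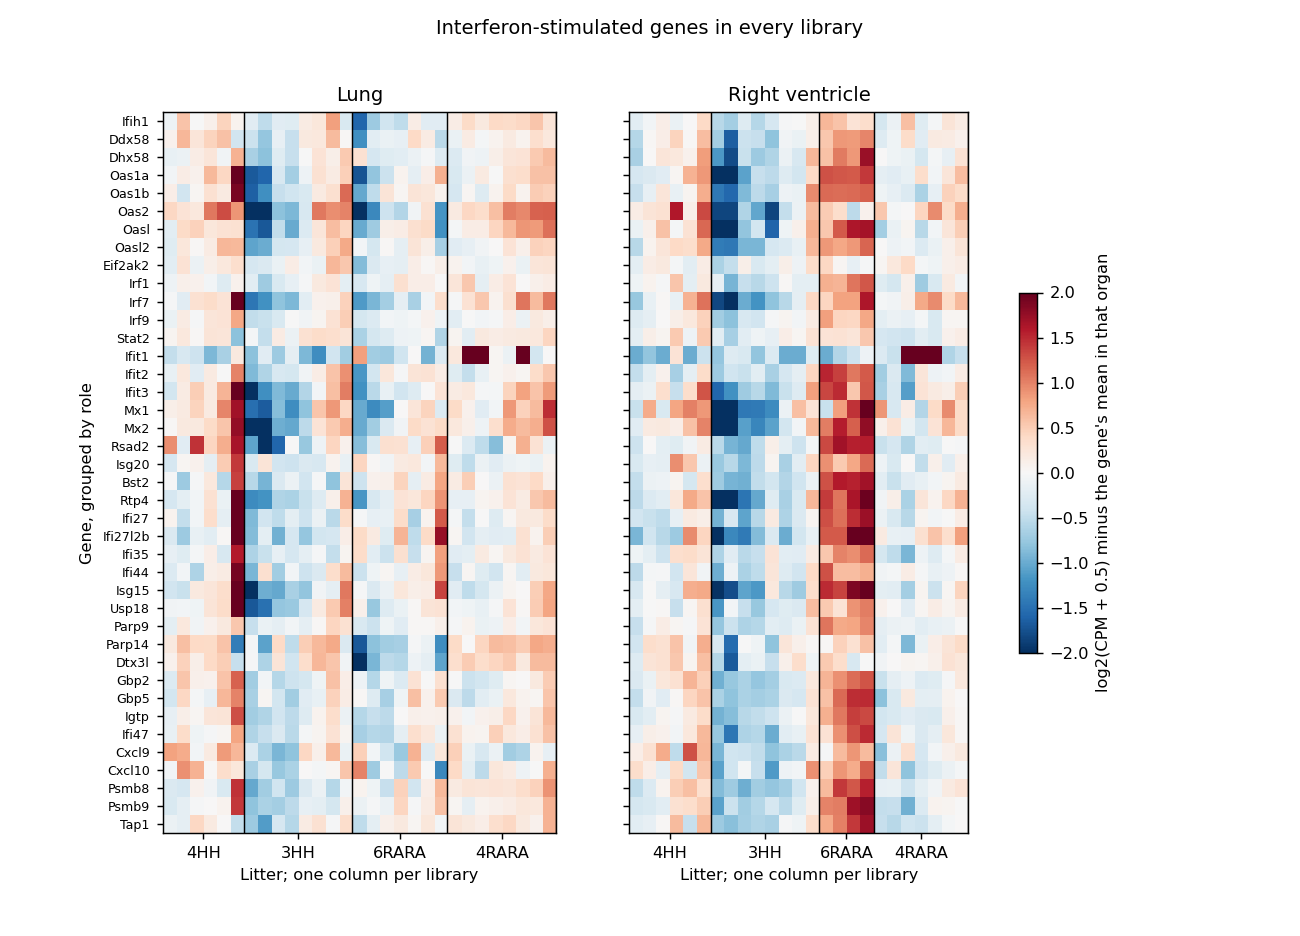
Level of each of the 40 genes (down the page, grouped by role) in each library (one column per library, by litter), as log2(CPM + 0.5) minus the gene's mean in that organ, in lung (left) and RV (right). Red is above and blue below the gene's mean. The RVs of 6RARA are red for most genes, several animals of 3HH are blue in both organs, lung 4HH39 is the highest of its litter for 28 genes, and Ifit1 is red in 3 animals of 4RARA.

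In lung, 1 of the 40 genes differed between H-H and RA-RA: Ifit1 was lower in H-H. A gene was called when its adjusted p was under 0.05 (edgeR quasi-likelihood test with treatment and sex, Benjamini-Hochberg over 12093 genes). No gene of the set was called higher and 1 was called lower, where 0.868% of all tested genes were called higher and 1.13% lower. The log2 fold changes of H-H over RA-RA had a median of 0.09 over the set, against 0.02 over all genes. Of the 40, 27 were positive, and 1 reached an unadjusted p under 0.05. In bulk tissue, more cells of a type and more RNA per cell cannot be told apart, here and in every comparison that follows.

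Ifit1 (rn6 chromosome 1, 252944104 to 252946170, plus strand) encodes a protein that binds viral RNA lacking the methylation of host caps. In lung it lay at 0.784 to 2.26 CPM in 4HH (median 1.26), 0.510 to 1.63 CPM in 3HH (median 0.964), 0.746 to 3.76 CPM in 6RARA (median 1.31) and 1.36 to 30.8 CPM in 4RARA (median 2.12). The difference rested on 3 littermates: 4RARA39, 4RARA41 and 4RARA42 held 21.7, 22.4 and 30.8 CPM, from 430 to 528 reads each, while the other 26 lungs held at most 3.76 CPM and 44 reads. The same 3 animals held 11.5, 20.5 and 20.3 CPM in RV, from 62 to 275 reads, and the other 22 RVs held at most 0.704 CPM and 13 reads, with 6 at 0. Ifit1 separated these 3 animals from all others in both organs, and for no other gene of the set were they the 3 highest animals in either organ. The log2 fold change in lung was −2.44 ± 0.56, adjusted p = 0.0146 (SE, edgeR), with 1.19 ± 0.444 CPM in H-H and 6.36 ± 9.86 CPM in RA-RA (SD, n = 14 and 15). Its value without litter 4RARA was −0.18 ± 0.29, adjusted p = 0.814. Ifit1 was not called without 3HH, without 4HH or within library batch 1 or 2 either. Nor was it called with library batch as a covariate, with litter as a random effect (limma) or on counts summed per litter. Of all genes, 2.83% were called without 3HH, 1.93% without 4HH, none within batch 1 and 0.0166% within batch 2. The share was 1.29% with batch as a covariate and 0.0827% with the random effect, and none was called on summed counts. Ifit1 has close paralogues in the rat, and how reads that map to several places were counted is not given in the sources used here, so its split among them is uncertain. The same holds for Oas1a and Oas1b, for the Mx, Ifi27 and Gbp families, and, as strand in counting is not given either, for the neighbours Parp9 and Dtx3l.

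No other gene passed the test between treatments in lung. Among the 9 sensors, Eif2ak2, the kinase PKR that halts translation on double-stranded RNA, had the smallest p and lay at 70.9 to 104 CPM in 4HH (median 92.7), 65.1 to 130.5 CPM in 3HH (median 77.2), 45.1 to 91 CPM in 6RARA (median 73.3) and 74.3 to 98.6 CPM in 4RARA (median 82.9), a log2 fold change of 0.15 ± 0.11, adjusted p = 0.653. Among the 4 transcription factors, Irf1, a factor that binds ISREs, lay at 79.7 to 102 CPM in 4HH (median 96.2), 57.7 to 116 CPM in 3HH (median 83.9), 76.1 to 119 CPM in 6RARA (median 95.5) and 84.2 to 139 CPM in 4RARA (median 106), a log2 fold change of −0.18 ± 0.09, adjusted p = 0.419. Both genes overlapped between treatments.

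Stat2, a subunit of ISGF3, lay at 57.9 to 123 CPM in 4HH (median 113), 73.2 to 133 CPM in 3HH (median 119), 65.8 to 106 CPM in 6RARA (median 85.3) and 88.7 to 138 CPM in 4RARA (median 117), a log2 fold change of 0.11 ± 0.11, adjusted p = 0.768. Ifi27 lay at 255 to 1713 CPM in 4HH (median 358), 193 to 458 CPM in 3HH (median 269.9), 223 to 828 CPM in 6RARA (median 350.4) and 256 to 459 CPM in 4RARA (median 359), where the top value is that of lung 4HH39. Ifi27 had a log2 fold change of 0.08 ± 0.25, adjusted p = 0.947. Of the 5 genes of conjugation all had positive values, from 0.08 to 0.31. Parp9, which works with Dtx3l in ADP-ribosylation of ubiquitin, had 86.6 to 144 CPM in 4HH (median 109), 71.7 to 134 CPM in 3HH (median 92.8), 73.4 to 106 CPM in 6RARA (median 93.3) and 89.8 to 120.2 CPM in 4RARA (median 101), a log2 fold change of 0.08 ± 0.09, adjusted p = 0.796. Parp9 had the smallest p of the 5. Parp14, an ADP-ribosyl transferase, had the highest mean CPM of the 5, with a log2 fold change of 0.12 ± 0.24, adjusted p = 0.897. The treatments overlapped in all of these genes.

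Among the GTPases, Gbp2, which coats vacuoles of intracellular pathogens, lay at 106 to 291 CPM in 4HH (median 163), 78.6 to 192 CPM in 3HH (median 110.4), 85.8 to 161 CPM in 6RARA (median 121) and 95.5 to 182 CPM in 4RARA (median 128), a log2 fold change of 0.16 ± 0.16, adjusted p = 0.759. The T cell attracting chemokines ranked 39 and 38 of 40 in lung by RPKM, Cxcl10 at 2.01 to 4.42 CPM in 4HH (median 2.69), 1.05 to 3.34 CPM in 3HH (median 1.79), 0.568 to 4.70 CPM in 6RARA (median 2.08) and 1.31 to 3.74 CPM in 4RARA (median 2.25) and Cxcl9 at 1.80 to 3.78 CPM in 4HH (median 3.39), 0.760 to 3.22 CPM in 3HH (median 1.57), 0.919 to 3.35 CPM in 6RARA (median 1.79) and 0.964 to 2.81 CPM in 4RARA (median 1.64). Their ranges overlapped, and the log2 fold changes were 0.11 ± 0.24, adjusted p = 0.915 for Cxcl10 and 0.37 ± 0.24, adjusted p = 0.568 for Cxcl9 (edgeR). The 3 genes of antigen processing all had negative values, between −0.38 and −0.23, without a call.

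Of these, Psmb8, a subunit of the immunoproteasome, lay at 35.2 to 123 CPM in 4HH (median 39.3), 21.8 to 43.1 CPM in 3HH (median 31.8), 32.1 to 70.2 CPM in 6RARA (median 47) and 50.3 to 83.6 CPM in 4RARA (median 53.8), a log2 fold change of −0.38 ± 0.19, adjusted p = 0.376. Tap1, a peptide transporter, lay at 60.7 to 113 CPM in 4HH (median 81.4), 38.8 to 108 CPM in 3HH (median 75.1), 59.2 to 98.5 CPM in 6RARA (median 87.2) and 90.02 to 138 CPM in 4RARA (median 99.2), a log2 fold change of −0.26 ± 0.13, adjusted p = 0.391. Lung 4HH39 was far above its littermates for Psmb8 and lowest of them for Tap1. Without the 4 lungs apart, 4 genes were called lower in H-H: Psmb8 (−0.58 ± 0.13, adjusted p = 0.0101), Psmb9 (−0.40 ± 0.11, adjusted p = 0.0323), Bst2 (−0.46 ± 0.12, adjusted p = 0.0245) and Ifit1 (edgeR). In that fit, which kept lung 3HH27, 3.69% of all genes were called in either direction. Litter also set the sign of the set: its median log2 fold change was 0.32 when 3HH was left out, −0.25 when 4HH was, −0.06 when 6RARA was and 0.19 when 4RARA was.

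In RV, most of the set had negative log2 fold changes of H-H over RA-RA when all 4 litters were fitted, and 4 antiviral effectors passed the test. None of 39 genes was called higher and 4 were called lower, where 0.833% of all 11278 tested genes were called higher and 2.21% lower. The median log2 fold change was −0.61 over the set, against 0.02 over all genes. Of the 39 values, 38 were negative, and 27 reached an unadjusted p under 0.05, all lower. Without 6RARA the median was −0.09, with 12 of 39 values positive and no gene called, where 0.158% of all genes were called. Litters of both treatments moved the result: the median of the set was −0.31 with no gene called without 3HH, and −0.87 with 2 called without 4HH, Ifi27l2b and Irf7. No gene was called either with library batch as a covariate, with litter as a random effect (limma) or on counts summed per litter. These fits called few of all genes: 0.204% with batch, and none with the random effect or on summed counts. Without 3HH none of all genes was called, and without 4HH 0.46% were. All 14 RVs of H-H and all 7 of 4RARA lay below all 4 RVs of 6RARA for Rsad2, Bst2, Ifi27 and Ifi27l2b.

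Ifi27l2b, a small protein related to Ifi27, lay at 15.5 to 57.8 CPM in 4HH (median 21.4) and 6.81 to 26.8 CPM in 3HH (median 15.4), against 70.4, 70.5, 126 and 143 CPM in 6RARA and 26.6 to 53.3 CPM in 4RARA (median 37.4). Bst2 lay at 119 to 210.4 CPM in 4HH (median 155) and 85.4 to 154 CPM in 3HH (median 115), against 403, 503, 488 and 538 CPM in 6RARA and 123 to 189 CPM in 4RARA (median 150.0). Ifi27 lay at 212 to 342 CPM in 4HH (median 249.7) and 144 to 342 CPM in 3HH (median 222), against 736, 649, 835 and 985 CPM in 6RARA and 204 to 335 CPM in 4RARA (median 289). For all 3 the H-H range overlapped that of 4RARA and stayed below that of 6RARA.

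Rsad2, the radical SAM enzyme viperin, lay at 42.3 to 63.6 CPM in 4HH (median 51.7) and 27.7 to 61.1 CPM in 3HH (median 40.8), against 142, 182, 167 and 169 CPM in 6RARA and 37.2 to 56 CPM in 4RARA (median 47.9). The log2 fold changes of H-H over RA-RA were −1.44 ± 0.29, adjusted p = 0.0155 for Ifi27l2b, −1.04 ± 0.24, adjusted p = 0.0266 for Bst2, −0.93 ± 0.23, adjusted p = 0.0327 for Ifi27 and −0.95 ± 0.26, adjusted p = 0.0433 for Rsad2 (SE, edgeR, n = 14 and 11). Without 6RARA, no gene of the set was called and the values were −0.78 ± 0.27, adjusted p = 0.343 for Ifi27l2b, −0.23 ± 0.14, adjusted p = 0.690 for Bst2, −0.20 ± 0.15, adjusted p = 0.767 for Ifi27 and −0.03 ± 0.13, adjusted p = 0.969 for Rsad2. The median of the set was then −0.09, and without 4RARA it was −1.19 with 32 genes called lower. Of all genes, 0.158% were called in either direction without 6RARA and 55.6% without 4RARA.

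In the other roles no gene passed the test between treatments in RV. The 9 sensors had log2 fold changes from −0.90 to −0.15 without a call. Oas1a, which makes the oligoadenylates that activate RNase L, had the smallest p and lay at 7.31 to 17.4 CPM in 4HH (median 8.77), 1.62 to 12.4 CPM in 3HH (median 6.54), 23.3, 22.7, 22.7 and 25.9 CPM in 6RARA and 7.93 to 14.7 CPM in 4RARA (median 8.98), a log2 fold change of −0.90 ± 0.30, adjusted p = 0.0927. Eif2ak2 lay at 55.8 to 74 CPM in 4HH (median 67.2), 41.5 to 83.6 CPM in 3HH (median 58.1), 86.4, 66.6, 57.4 and 63.7 CPM in 6RARA and 60.7 to 85.6 CPM in 4RARA (median 69.2), a log2 fold change of −0.15 ± 0.10, adjusted p = 0.390. Oas1a was higher in all 4 RVs of 6RARA than in any other RV, and Eif2ak2 overlapped across all 4 litters.

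Irf7, the factor that amplifies type I interferon production, lay at 26.1 to 95.3 CPM in 4HH (median 42.7), 10.5 to 59.2 CPM in 3HH (median 23.6), 60.3, 78.3, 77.8 and 138 CPM in 6RARA and 42.4 to 85.9 CPM in 4RARA (median 58.2), a log2 fold change of −0.87 ± 0.28, adjusted p = 0.0812. Isg15, the ubiquitin-like modifier, lay at 11.8 to 25.5 CPM in 4HH (median 13.9), 3.40 to 19 CPM in 3HH (median 7.86), 42.6, 38.6, 55.4 and 72.3 CPM in 6RARA and 9.12 to 20.5 CPM in 4RARA (median 12.9), a log2 fold change of −1.12 ± 0.35, adjusted p = 0.0711. Parp9 lay at 41 to 68.9 CPM in 4HH (median 57.2), 33.1 to 69.5 CPM in 3HH (median 44.8), 119.7, 96.8, 98.9 and 112 CPM in 6RARA and 49.2 to 56.8 CPM in 4RARA (median 52.2), a log2 fold change of −0.50 ± 0.17, adjusted p = 0.0959. Isg15 and Parp9 were highest in 6RARA without overlap, whereas Irf7 in 6RARA overlapped both 4RARA and 4HH.

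Gbp5, a GTPase that promotes inflammasome assembly, lay at 19.9 to 41.5 CPM in 4HH (median 27.5), 15.7 to 34.2 CPM in 3HH (median 17.8), 42.2, 61.8, 78.6 and 79.6 CPM in 6RARA and 15.6 to 31.8 CPM in 4RARA (median 24.5), a log2 fold change of −0.69 ± 0.23, adjusted p = 0.0930. Tap1 lay at 21.9 to 48 CPM in 4HH (median 28.9), 16.7 to 38.7 CPM in 3HH (median 19.5), 51, 61.3, 81.9 and 100.2 CPM in 6RARA and 20.5 to 30.5 CPM in 4RARA (median 22.9), a log2 fold change of −0.59 ± 0.26, adjusted p = 0.197. Cxcl10 lay at 1.43 to 3.17 CPM in 4HH (median 2.46), 0.639 to 4.20 CPM in 3HH (median 1.63), 2.99, 4.12, 3.70 and 5.32 CPM in 6RARA and 0.930 to 2.46 CPM in 4RARA (median 1.62), a log2 fold change of −0.31 ± 0.29, adjusted p = 0.536. In Gbp5 and Tap1 the 6RARA values again lay above all others, and in Cxcl10 they overlapped 4HH and 3HH. Psmb8 had a log2 fold change of −0.80 ± 0.24, adjusted p = 0.0664, with 25.9, 44.9, 39.7 and 49.4 CPM in 6RARA and 12.3 to 19.97 CPM in 4RARA (median 14.9). Gbp2 had one of −0.51 ± 0.22, adjusted p = 0.184, with 87.5, 103, 119 and 131 CPM in 6RARA and 39.9 to 62.8 CPM in 4RARA (median 47.9). Cxcl9 had one of −0.16 ± 0.25, adjusted p = 0.716, with 8.03, 12.9, 15.4 and 12.9 CPM in 6RARA and 4.34 to 10.4 CPM in 4RARA (median 7.81). Psmb8 was higher in 6RARA than in any other RV, and so was Gbp2, by little over the highest RV of 4HH, while Cxcl9 overlapped across the litters.

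The RVs of 6RARA also differed from those of 4RARA in tissue markers and RNA quality. Summed cardiac muscle markers (10 of 10 measured) were 22694 to 34216 CPM in 6RARA and 71681 to 93656 CPM in 4RARA. Endothelial markers (5 of 5) were 2722 to 3667 CPM in 6RARA and 1213 to 1782 CPM in 4RARA. Lung epithelial markers (10 of 10) were 343 to 2134 CPM in 6RARA and 63.4 to 257 CPM in 4RARA. Neutrophil markers (6 of 6) were 35.3 to 86.0 CPM in 6RARA and 10.1 to 28.1 CPM in 4RARA. Liver markers (4 of 4) were 16.2 to 1491 CPM in 6RARA and 0.759 to 5.08 CPM in 4RARA. Macrophage and monocyte markers (6 measured of 9) summed to 641 to 2340 CPM in 6RARA and 337 to 602 CPM in 4RARA, of which Lyz2 made up 469 to 2132 CPM in 6RARA and 197 to 407 CPM in 4RARA. The macrophage marker Adgre1 was lower in 6RARA without overlap, at 9.30 to 11.3 CPM in 6RARA and 12.2 to 22.7 CPM in 4RARA, and Csf1r, at 46.1 to 73.6 CPM in 6RARA and 59 to 95.3 CPM in 4RARA, overlapped. Dendritic cell markers (5 measured of 7) summed to 319.5 to 506 CPM in 6RARA and 133 to 179 CPM in 4RARA, of which Tcf4, a transcription factor that other cell types also express, made up 291 to 469 CPM in 6RARA and 114 to 156 CPM in 4RARA. The defining dendritic cell markers Xcr1 and Clec9a had medians of 0.555 and 2.45 CPM in 6RARA and 1.12 and 2.72 CPM in 4RARA, with overlap. None of these sums overlapped between the litters, while those of T and NK cell markers (13 of 13) did, at 56.4 to 75.2 CPM in 6RARA and 52.3 to 85.4 CPM in 4RARA. Among defining markers, Cldn18 of lung epithelium and Camp of neutrophils were at 0 in at least 1 RV of 4RARA and in none of 6RARA. RNA integrity numbers were 5.8 to 7.4 in 6RARA and 6.5 to 9.6 in 4RARA, and intergenic reads 17.3% to 22.5% in 6RARA and 9.28% to 12.3% in 4RARA. The part of tissue makeup and RNA quality in the result was not tested.

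**Figure D2:**
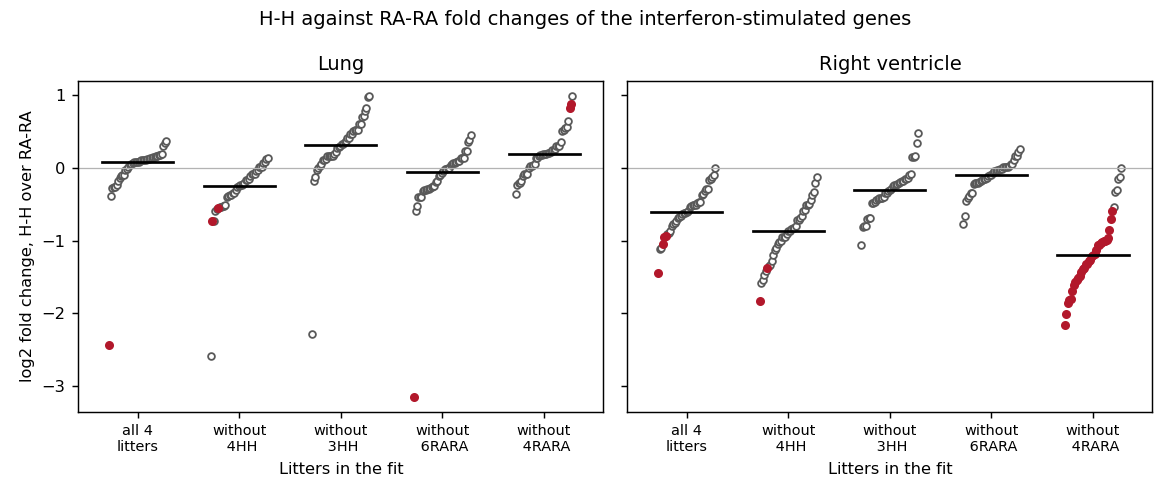
The log2 fold changes of H-H over RA-RA for each gene (points, sorted within a column) in lung (left) and RV (right), fitted to all 4 litters and without each litter in turn. Filled red points were called at an adjusted p under 0.05 and the bars are medians. In RV the median lies at −0.61 with all litters, −0.09 without 6RARA and −1.19 without 4RARA.

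Between the room air litters, most of the set was higher in RV of 6RARA, and in lung the share called lower was near that of all genes. In RV, 33 of 39 genes were called higher in 6RARA than in 4RARA and none lower, where 29.9% of all 11789 genes were called higher and 29.1% lower. This contrast moved much of the transcriptome in both directions. The median log2 fold change was 1.18 over the set, against 0.04 over all genes. In 31 of 40 genes every RV of 6RARA lay above every RV of 4RARA, as did 21.4% of all genes kept, and in none did every RV of 6RARA lie below, as did 25.1% of all genes. All 3 genes of antigen processing and all 4 GTPases were called, with 11 of 12 effectors, 7 of 9 sensors, 3 of 4 transcription factors, 3 of 5 conjugation genes and both chemokines. Not called were Eif2ak2, Oas2, Irf7, Mx1, Parp14 and Dtx3l.

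The smallest p belonged to Rsad2 and Bst2, whose values stand above, with log2 fold changes of 1.80 ± 0.15, adjusted p = 6.45e-10 for Rsad2 and 1.64 ± 0.15, adjusted p = 1.18e-09 for Bst2 (SE, edgeR). Psmb9, an immunoproteasome subunit, lay at 45.6, 46.2, 73.9 and 80.5 CPM in 6RARA and 11.4 to 23.7 CPM in 4RARA (median 18.5), a log2 fold change of 1.67 ± 0.20, adjusted p = 9.62e-08. Igtp, an immunity-related GTPase, lay at 38.5, 49.1, 61.3 and 58.8 CPM in 6RARA and 18 to 25 CPM in 4RARA (median 18.9), a log2 fold change of 1.34 ± 0.18, adjusted p = 9.2e-07. Neither gene overlapped between the litters.

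Ifit2, which restricts translation of viral RNA, lay at 314, 279, 226 and 255 CPM in 6RARA and 58.4 to 128 CPM in 4RARA (median 101), a log2 fold change of 1.5 ± 0.21, adjusted p = 1.74e-06. Irf1 lay at 67.8, 66.3, 87.1 and 98.2 CPM in 6RARA and 25.1 to 46.9 CPM in 4RARA (median 34.9), a log2 fold change of 1.11 ± 0.16, adjusted p = 3.24e-06. Ifi35 lay at 24.5, 33.4, 31.9 and 37 CPM in 6RARA and 8.56 to 18.7 CPM in 4RARA (median 13.8), a log2 fold change of 1.18 ± 0.18, adjusted p = 3.92e-06. Each of the 4 RVs of 6RARA exceeded all 7 of 4RARA for these genes as well.

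For the remaining genes named by smallest p, the log2 fold change was 1.5 ± 0.18, adjusted p = 1.99e-07 for Ifi27, 1.04 ± 0.15, adjusted p = 1.96e-06 for Parp9, 1.54 ± 0.23, adjusted p = 2.65e-06 for Tap1, 1.33 ± 0.19, adjusted p = 2.74e-06 for Psmb8 and 1.36 ± 0.21, adjusted p = 4.4e-06 for Gbp5. Isg15 had the largest value of the set, 1.86 ± 0.33 (SE, n = 4 and 7). Leaving out each RV of 6RARA in turn left 29 to 32 genes called higher, with 1 called lower each time, Ifit1, which those fits kept. Those fits called 53.5% to 55.2% of all genes in either direction.

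In lung, none of 40 genes was called higher in 6RARA and 6 (15%) were called lower. At the same threshold, 10.0% of all 12377 genes were called higher and 10.8% lower, so the count lower was near the background. The median log2 fold change was −0.23, against 0.03 over all genes, and 32 of 40 values were negative. Dtx3l, a ubiquitin ligase that partners Parp9, lay at 5.64 to 23.7 CPM in 6RARA (median 16.9) and 29.2 to 39.8 CPM in 4RARA (median 35.3), a log2 fold change of −1.09 ± 0.20, adjusted p = 0.000774. Parp14 lay at 28.2 to 90.9 CPM in 6RARA (median 56.8) and 93.1 to 158 CPM in 4RARA (median 136), a log2 fold change of −1.17 ± 0.27, adjusted p = 0.00309. Ifih1, the long double-stranded RNA sensor MDA5, lay at 15 to 51.3 CPM in 6RARA (median 34.9) and 51.5 to 68.2 CPM in 4RARA (median 60.02), a log2 fold change of −0.75 ± 0.19, adjusted p = 0.00561. Dtx3l, Parp14 and Ifih1 were each lower in all 7 lungs of 6RARA than in any of the 8 lungs of 4RARA. These 3 of 40 are 7.5% of the set, and 8.01% of all genes lay below in the same way.

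Oas2, another oligoadenylate synthetase, lay at 0.939 to 9.99 CPM in 6RARA (median 5.19) and 9.10 to 19 CPM in 4RARA (median 14.2), a log2 fold change of −1.36 ± 0.46, adjusted p = 0.0353. Stat2 lay at the values given above, a log2 fold change of −0.42 ± 0.14, adjusted p = 0.0379. The value of Ifit1 was −3.0 ± 0.64, adjusted p = 0.00188, with the 3 high lungs of 4RARA behind it. Oas2 and Stat2 overlapped between the litters. Lung 6RARA66, the smallest library, was lowest of its litter for 22 of 40 genes, and without the lungs apart 7 genes were called lower, Ifih1, Stat2, Parp14, Dtx3l, Ifit1, Irf7 and Psmb8. That fit called 28.1% of all genes in either direction. Some cell type markers also separated the lungs of 6RARA and 4RARA. Of all genes, 8.01% lay below without overlap and 4.87% above. Of the macrophage and monocyte markers (8 measured of 9), 3 were lower in 6RARA without overlap: Csf1r at 113 to 235 CPM in 6RARA and 251 to 379 CPM in 4RARA, Cd68 at 27.8 to 79.1 CPM in 6RARA and 83.6 to 109 CPM in 4RARA, and Adgre1 at 7.26 to 14.4 CPM in 6RARA and 17.3 to 32.4 CPM in 4RARA. So were 2 of 6 neutrophil markers, Cxcr2 and Csf3r, and 1 of 13 T and NK cell markers, Cd4. Of 10 lung epithelial markers, Napsa was lower and Scgb1a1 higher in 6RARA without overlap. No listed marker of B cells, dendritic cells or endothelium separated these lungs. Csf3r lay at 15.3 to 27.7 CPM in 6RARA and 37 to 63.1 CPM in 4RARA, and Cd4 at 12 to 29.9 CPM in 6RARA and 33.3 to 73.7 CPM in 4RARA. Summed endothelial markers overlapped, at 1544 to 3343 CPM in 6RARA and 3245 to 3946 CPM in 4RARA. The part of these in the lung values was not tested.

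Between the altitude litters, nearly all genes of the set averaged higher in 4HH than in 3HH in both organs, and few passed the test. In lung, 2 of 40 genes were called higher and none lower, where 3.09% of all 12377 genes were called higher and 1.17% lower. Of the 40 values, 39 were positive, and the median log2 fold change was 0.57, against 0.02 over all genes. In RV, 3 of 39 were called higher and none lower, where 0.959% of all 11789 genes were called higher and 0.517% lower. All 39 values were positive, and the median was 0.53, against 0.02 over all genes. No gene of the set separated the litters without overlap in either organ, as 0.852% of all genes in lung and 0.213% in RV did upward.

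Irf7 lay in lung at 45.7 to 311 CPM in 4HH (median 65.9) and 19.6 to 74.1 CPM in 3HH (median 38.4), a log2 fold change of 1.25 ± 0.36, adjusted p = 0.0456. Rsad2 lay in lung at 27.7 to 103 CPM in 4HH (median 58) and 6.59 to 43.9 CPM in 3HH (median 24.6), a log2 fold change of 1.39 ± 0.34, adjusted p = 0.0229. Both ranges overlapped, and lung 4HH39 was the highest of its litter for both genes. Without the lungs apart, none was called and the values were 0.55 ± 0.27, adjusted p = 0.283 for Irf7 and 1.11 ± 0.34, adjusted p = 0.0760 for Rsad2, while 40 of 40 values stayed positive with a median of 0.33.

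In RV, Cxcl9 lay at 5.58 to 20.3 CPM in 4HH (median 11.7) and 4.10 to 9.16 CPM in 3HH (median 5.56), a log2 fold change of 1.05 ± 0.23, adjusted p = 0.0252. Psmb8 lay at 11.5 to 25.4 CPM in 4HH (median 19.1) and 8.16 to 17.6 CPM in 3HH (median 9.93), a log2 fold change of 0.78 ± 0.17, adjusted p = 0.0268. Gbp2 lay at 44.7 to 87.5 CPM in 4HH (median 65.6) and 27.6 to 63.4 CPM in 3HH (median 34.4), a log2 fold change of 0.72 ± 0.16, adjusted p = 0.0277. In each of the 3 genes the litters overlapped, and 3HH30 was the highest RV of 3HH. Without RV 4HH37, Cxcl9 and Gbp2 were called, where 0.682% of all genes were called in either direction.

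The mean of the 40 genes on the log2(CPM + 0.5) scale summarises each animal. In lung it was 5.15 to 6.31 in 4HH (median 5.36), 4.31 to 5.55 in 3HH (median 4.87), 4.68 to 5.36 in 6RARA (median 5.17) and 5.24 to 5.76 in 4RARA (median 5.37). In RV it was 4.19 to 5.06 in 4HH (median 4.60), 3.41 to 4.84 in 3HH (median 3.97), 5.26 to 5.74 in 6RARA (median 5.44) and 4.32 to 4.75 in 4RARA (median 4.51). The litters overlapped in lung, and in RV 6RARA lay above all others while 3HH reached lowest.

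**Figure D3:**
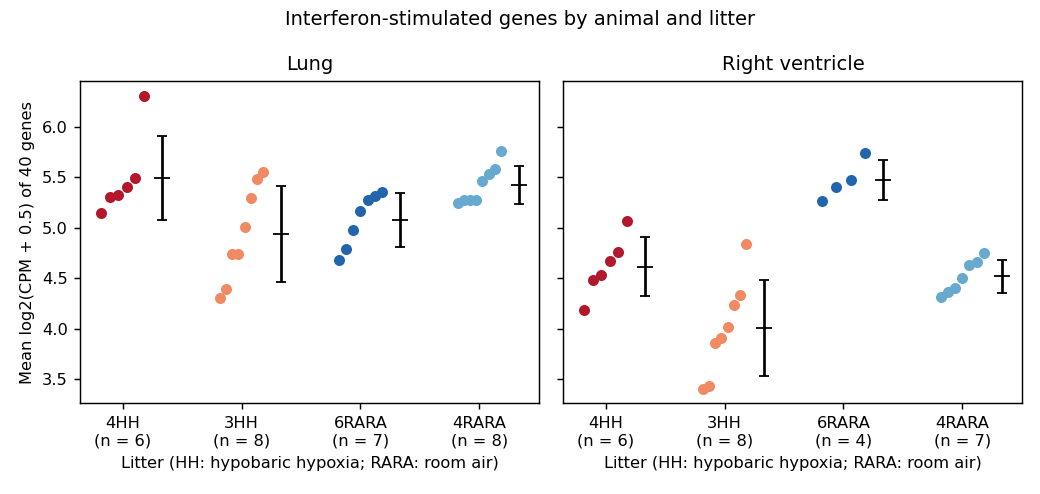
Mean of the 40 genes, as log2(CPM + 0.5), in each animal (points) by litter in lung (left) and RV (right). Bars are the mean ± SD of the litter, and n is the number of animals. The highest lung is 4HH39 at 6.31, and the 4 RVs of 6RARA lie at 5.26 to 5.74, above all other RVs.

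The difference between organs in the treatment effect was tested over all 54 libraries, without a term that pairs the organs of an animal. None of 40 genes was called, where 0.699% of all 11723 genes were called higher in lung and 0.316% lower (edgeR, and DESeq2 also called none). All 40 values, treatment effect in lung minus treatment effect in RV, were positive, with a median of 0.59 on the log2 scale against 0.02 over all genes, and 20 reached an unadjusted p under 0.05. The smallest p by role belonged to Ddx58 (0.67 ± 0.24, adjusted p = 0.195), Irf9 (0.43 ± 0.18, adjusted p = 0.277), Ifi27l2b (1.27 ± 0.44, adjusted p = 0.156), Parp9 (0.58 ± 0.19, adjusted p = 0.125), Gbp5 (0.72 ± 0.28, adjusted p = 0.230), Cxcl9 (0.51 ± 0.35, adjusted p = 0.602) and Psmb9 (0.53 ± 0.31, adjusted p = 0.521). With animal as a replicate block over the 25 animals with both organs, 2 genes were called higher in lung, Ifi27l2b (1.33 ± 0.28, adjusted p = 0.0158) and Irf7 (0.95 ± 0.23, adjusted p = 0.0416), and the median was 0.55. Without litter 6RARA the median was 0.09 with none called, and without 4RARA it was 1.28 with 34 called higher. Of all genes, 0.213% were called in either direction without 6RARA and 29.4% without 4RARA.

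Sex moved none of the set past the threshold. In lung, none of 40 genes was called between males and females and none reached an unadjusted p under 0.05, where 0.0165% of all genes were called higher in males and 0.0165% lower, and DESeq2 also called none. In RV, none of 39 was called and 1 reached an unadjusted p under 0.05, Isg20 (log2 fold change of male over female 0.48 ± 0.21, adjusted p = 0.758), where 0.0177% were called higher in males and 0.0266% lower, and DESeq2 called none. In RV 34 of 39 values were positive, with a median of 0.20 against 0.01 over all genes, and in lung 17 of 40 were positive, with a median of −0.02 against −0.03. Without the lungs apart, 32 of 40 lung values were positive, with a median of 0.13 against −0.01.

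Within a litter, an animal with high levels of the set in lung had high levels in RV. Pearson's r of lung and RV values was computed over the 25 animals for each of 10986 genes kept in both organs, on the log2(CPM + 0.5) scale and after removing the litter mean in each organ. The p came from 100000 permutations of the animals within litters (two-sided) and Benjamini-Hochberg adjustment over those genes. Of 39 genes of the set, 14 were called positive, where 0.710% of all genes were. The count was 8 by Spearman's rho, where 48 of all genes were called positive, and 4 with litter and sex means removed, where 22 of all genes were. The median r was 0.616 over the set, against 0.124 over all genes. Of 39 values, 38 were positive, and 24 of 39 (61.5%) exceeded 0.5, as did 7.33% of all genes. By role, 4 of 9 sensors, 3 of 4 transcription factors, 4 of 12 effectors, 1 of 5 conjugation genes, 1 of 4 GTPases, none of 2 chemokines and 1 of 3 genes of antigen processing were called.

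Mx2, a dynamin-like GTPase that blocks viral replication, had the highest r. It lay in lung at 106 to 355 CPM in 4HH (median 128), 17.1 to 173 CPM in 3HH (median 62.8), 51.7 to 137 CPM in 6RARA (median 99.4) and 97.3 to 254 CPM in 4RARA (median 148). In RV it lay at 58.4 to 137 CPM in 4HH (median 78.1), 9.66 to 108 CPM in 3HH (median 32), 139.8, 204, 158 and 235 CPM in 6RARA and 52.8 to 108 CPM in 4RARA (median 83.1). In 3HH, 3HH27 and 3HH21 were lowest in both organs, at 17.1 and 19.4 CPM in lung and 9.66 and 10.8 CPM in RV, and 3HH30 was highest in both, at 173 and 108 CPM. In 4HH, 4HH39 was highest in both organs, at 355 CPM in lung and 137 CPM in RV. The r of Mx2 was 0.919 (permutation p = 1e-05, the smallest that these permutations can give, adjusted p = 0.00499), Spearman's rho was 0.787 (adjusted permutation p = 0.0220), and r was 0.873 without the 2 animals farthest from the lung median. By litter it was 0.878 in 4HH, 0.975 in 3HH, 0.0337 in the 4 animals of 6RARA and 0.931 in 4RARA.

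Irf7 lay in lung at 45.7 to 311 CPM in 4HH (median 65.9), 19.6 to 74.1 CPM in 3HH (median 38.4), 24.4 to 69 CPM in 6RARA (median 34.4) and 53 to 114 CPM in 4RARA (median 73), and its RV values stand above. The r of Irf7 was 0.838 (permutation p = 1e-05, adjusted p = 0.00499), rho was 0.799 (adjusted permutation p = 0.00687), and r was 0.830 without the 2 farthest animals. It held in each litter, at 0.807 in 4HH, 0.915 in 3HH, 0.833 in 6RARA and 0.940 in 4RARA.

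Oas1b lay in lung at 10.6 to 53.4 CPM in 4HH (median 15.5), 4.17 to 31.1 CPM in 3HH (median 10.8), 6.58 to 16.8 CPM in 6RARA (median 14.6) and 11 to 19.9 CPM in 4RARA (median 14.6). In RV it lay at 6.66 to 15.8 CPM in 4HH (median 9.09), 2.82 to 18.6 CPM in 3HH (median 6.07), 21.1, 21, 21.2 and 22 CPM in 6RARA and 5.89 to 13.1 CPM in 4RARA (median 8.32). Its r was 0.891 (permutation p = 1e-05, adjusted p = 0.00499), its rho 0.802 (adjusted permutation p = 0.00955), and its r without the 2 farthest animals 0.856. The animals 3HH30 and 4HH39 were highest of their litters in both organs.

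Mx1, the nuclear relative of Mx2, lay in lung at 45.4 to 136 CPM in 4HH (median 52.5), 13 to 77.3 CPM in 3HH (median 23.4), 17.3 to 57.2 CPM in 6RARA (median 34.5) and 35.7 to 118 CPM in 4RARA (median 56.7). In RV it lay at 10.6 to 30.1 CPM in 4HH (median 25.3), 2.01 to 22.5 CPM in 3HH (median 5.54), 10.6, 26.4, 40.8 and 66.5 CPM in 6RARA and 9.60 to 28.7 CPM in 4RARA (median 19.3). Its r was 0.857 (permutation p = 1e-05, adjusted p = 0.00499), its rho 0.858 (adjusted permutation p = 0.00955), and its r without the 2 farthest animals 0.885. For Mx1 the r was 0.825 among the 4 animals of 6RARA, against 0.0337 for Mx2.

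Irf9, the DNA-binding subunit of ISGF3, lay in lung at 58.3 to 109.5 CPM in 4HH (median 73.8), 45.3 to 89.8 CPM in 3HH (median 61.9), 49.8 to 67.9 CPM in 6RARA (median 60.3) and 54.9 to 73.3 CPM in 4RARA (median 63.3). In RV it lay at 30.8 to 51.1 CPM in 4HH (median 38.8), 20.7 to 41.8 CPM in 3HH (median 32.5), 65.9, 49.9, 49.7 and 63.9 CPM in 6RARA and 29.9 to 38.1 CPM in 4RARA (median 34). Its r was 0.829 (permutation p = 1e-05, adjusted p = 0.00499), its rho 0.823 (adjusted permutation p = 0.00687), and its r without the 2 farthest animals 0.768. The other genes called were Dhx58 (r = 0.815), Oasl (r = 0.810), Oas1a (r = 0.776), Ifit3 (r = 0.776), Bst2 (r = 0.758), Igtp (r = 0.745), Irf1 (r = 0.721), Isg15 (r = 0.701) and Psmb9 (r = 0.556).

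At the low end were Isg20, an exonuclease, Cxcl9 and Stat2. Isg20 lay in lung at 21.8 to 75.1 CPM in 4HH (median 29.2), 20.8 to 33.5 CPM in 3HH (median 22.6), 26.4 to 44.1 CPM in 6RARA (median 31.7) and 19.4 to 29.3 CPM in 4RARA (median 25.4). In RV it lay at 5.0 to 12.5 CPM in 4HH (median 5.68), 3.14 to 8.65 CPM in 3HH (median 4.19), 12.4, 9.30, 11.2 and 14.4 CPM in 6RARA and 4.37 to 6.85 CPM in 4RARA (median 5.87). The r of Isg20 was −0.207 (permutation p = 0.501, adjusted p = 0.892) and rho −0.0254 (adjusted permutation p = 0.973). Lung 4HH39 was highest of its litter for Isg20, at 75.1 CPM, while RV 4HH37 was highest in RV, at 12.5 CPM. Cxcl9 had r = 0.00231 (permutation p = 0.991, adjusted p = 0.999) and rho = 0.0508 (adjusted permutation p = 0.940), at the low lung levels given above.

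Stat2 lay in RV at 40.4 to 67 CPM in 4HH (median 49.2), 29.1 to 56.8 CPM in 3HH (median 42.5), 55.9, 56.9, 54.9 and 67.7 CPM in 6RARA and 34.6 to 51.6 CPM in 4RARA (median 37.4). Stat2 had r = 0.139 (permutation p = 0.591, adjusted p = 0.927) and rho = 0.111 (adjusted permutation p = 0.851). Its r was −0.695 in 4HH, where lung 4HH39 was lowest at 57.9 CPM, and 0.826 in 3HH. Without 4HH37, 4HH39 and litter 6RARA it was 0.670 (n = 19, permutation test, adjusted p = 0.0608).

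**Figure D4:**
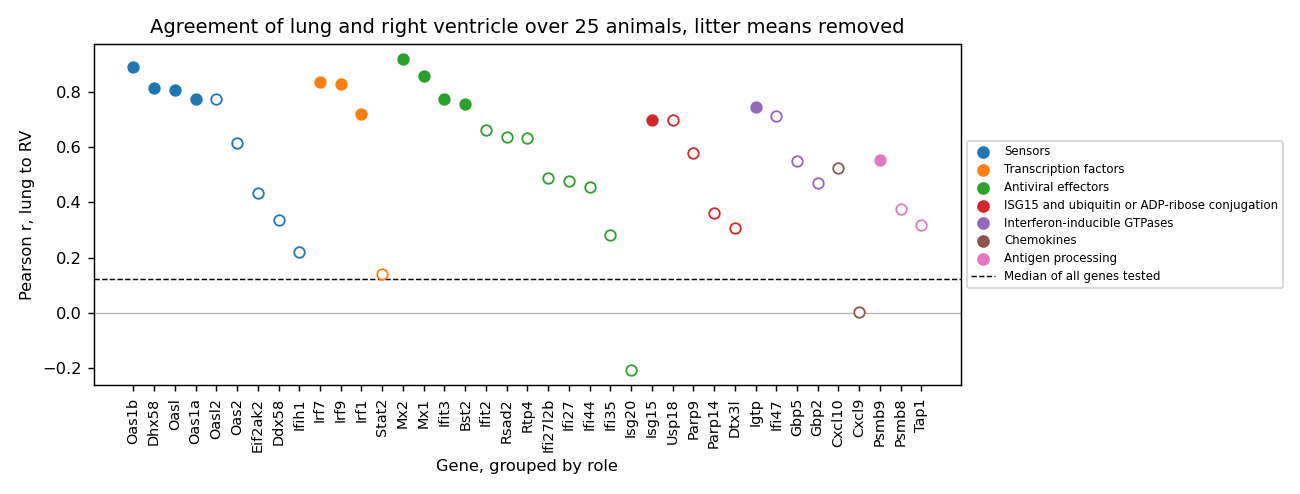
Pearson's r between lung and RV over 25 animals, litter means removed, for the 39 genes kept in both organs (points, coloured by role). Filled points were called at an adjusted p under 0.05 and the dashed line is the median of all genes, 0.124. The set runs from −0.207 for Isg20 to 0.919 for Mx2.

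For the mean of the 40 genes, r between lung and RV was 0.86 and rho 0.77 over the 25 animals, as a description, and 21 of 25 animals lay on the same side of their litter mean in both organs. The r was 0.75 in 4HH, 0.92 in 3HH, 0.70 in the 4 animals of 6RARA and 0.94 in 4RARA. Without 3HH30 and 4HH39, the farthest in lung, it was 0.81, and without 4HH37, 4HH39 and litter 6RARA it was 0.90 (n = 19). Among the 8 animals of 3HH, 3HH30 was the highest for 21 of 40 genes in lung and 33 in RV, and 3HH21 and 3HH27 were lowest, or tied, for 20 and 14 genes in lung and 16 each in RV. The RNA integrity number of RV 3HH30 was 5.9, against 7.2 to 8.4 in the other RVs of 3HH, and its part was not tested. In 4HH, 4HH39 was highest for 28 genes in lung and 25 in RV. In 4HH too, 4HH36 was lowest or tied for 29 genes in RV and 8 in lung.

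**Figure D5:**
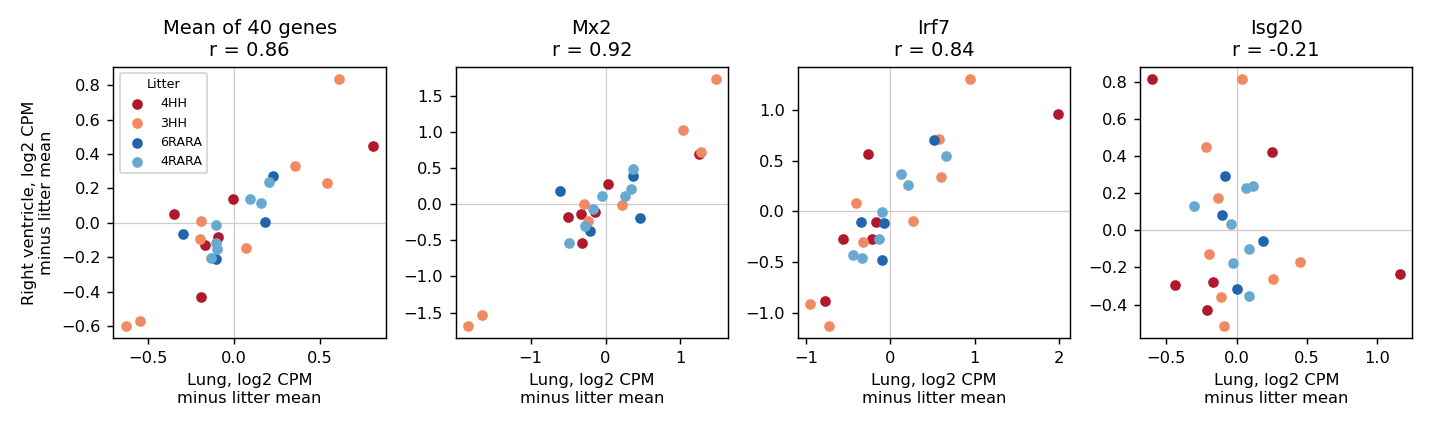
Lung (x axis) against RV (y axis) for each of 25 animals, as log2(CPM + 0.5) minus the litter mean, for the mean of the 40 genes and for Mx2, Irf7 and Isg20 (points coloured by litter). Animals of 3HH span the widest range for the mean and for Mx2, and r is 0.86 for the mean and −0.21 for Isg20.

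Without 4HH37, 4HH39 and litter 6RARA, 21 of 39 genes were called, with a median r of 0.709 against 0.343 over all genes. Of all genes 817 were then called positive. Only 7 of 25 animals had both libraries in the same library batch, and with litter and library batch means removed the median r was 0.641 over the set and 0.0797 over all genes. Genes of the set also moved together within each organ: over litter-centred values, the mean r of the 780 gene pairs was 0.434 in lung and 0.513 in RV, against 0.00171 and 0.00264 over all genes, and 86.3% of pairs in lung and 95% in RV were positive. The median SD within litters was 0.459 in lung and 0.397 in RV on the log2 scale, against 0.379 and 0.296 over all genes. In lung the genes nearest the mean of the others were Mx2 (r = 0.957), Ifit3 (r = 0.948) and Usp18 (r = 0.932), and Ifit1 (r = −0.164) and Parp14 (r = 0.0528) were the farthest from it. In RV they were Irf7 (r = 0.940), Oasl2 (r = 0.938) and Igtp (r = 0.925), with Ifit1 (r = −0.0577) the farthest.

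Markers of other cell types moved with the set in part. The mean of the T and NK cell markers (13 of 13 measured) had a litter-centred r with the mean of the set of 0.80 in lung and 0.45 in RV, and of 0.72 and 0.51 without the libraries apart. Across organs, that marker mean had an r of 0.13 between lung and RV of the 25 animals, against 0.86 for the mean of the set, and the other marker lists had r between −0.67 for cardiac muscle and 0.36 for thymus. Single T and NK cell markers ran from r = −0.125 for Cd3d to 0.702 for Cd4. All these values include 4HH37, whose libraries each held transcripts of the other organ. In lung, summed T and NK markers were 144 to 407 CPM in 4HH, 88.9 to 182 CPM in 3HH, 124 to 283 CPM in 6RARA and 150.3 to 287 CPM in 4RARA. Their part in the agreement was not tested.

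Pathway genes outside the set, a list of 87 genes of which 65 were measured in lung and 66 in RV, were read in the same contrasts. Receptor genes measured in both organs were Ifnar1, Ifngr1, Ifngr2, Ifnlr1 and Il10rb. Ifnar1, a chain of the type I receptor, lay in lung at 322 to 515 CPM in 4HH (median 374), 294 to 425 CPM in 3HH (median 359.7), 193 to 418 CPM in 6RARA (median 306) and 279 to 352 CPM in 4RARA (median 331), and in RV at 115 to 195 CPM in 4HH (median 135), 108 to 153 CPM in 3HH (median 127), 189.7 to 238 CPM in 6RARA and 111 to 146 CPM in 4RARA (median 129). Between H-H and RA-RA, none was called higher and 1 lower in lung, Socs1, the feedback inhibitor of the receptor kinases, at 3.86 to 8.20 CPM in 4HH (median 5.22), 2.99 to 8.45 CPM in 3HH (median 4.79), 5.11 to 16.9 CPM in 6RARA (median 11) and 4.67 to 16.9 CPM in 4RARA (median 8.0), a log2 fold change of −0.78 ± 0.20, adjusted p = 0.0335. Its lung ranges overlapped between treatments.

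In RV, none was called higher in H-H and 5 were called lower. Slfn2 lay at 66.5 to 132 CPM in 4HH (median 98), 54.7 to 114 CPM in 3HH (median 84.7), 211 to 233 CPM in 6RARA and 90.3 to 132 CPM in 4RARA (median 113), a log2 fold change of −0.76 ± 0.17, adjusted p = 0.0244, and Ifitm3, which blocks viral entry, at 112 to 157 CPM in 4HH (median 136), 74.5 to 133 CPM in 3HH (median 94.8), 269.7 to 364 CPM in 6RARA and 106 to 136 CPM in 4RARA (median 121), a log2 fold change of −0.76 ± 0.20, adjusted p = 0.0416. The others were Sp100 (−0.60 ± 0.15, adjusted p = 0.0376), Ifitm2 (−0.72 ± 0.19, adjusted p = 0.0398) and Lgals9 (−0.81 ± 0.22, adjusted p = 0.0414). In Slfn2, Ifitm2, Ifitm3, Sp100 and Lgals9 the RVs of 6RARA lay above all other RVs.

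Between 6RARA and 4RARA, 32 of 66 were called higher in RV and 6 lower, led by Ifitm2 (1.33 ± 0.10, adjusted p = 1.68e-10), Shisa5 (1.25 ± 0.11, adjusted p = 1.22e-09), Ifitm3 (1.33 ± 0.13, adjusted p = 2.81e-09), Sp110 (1.03 ± 0.10, adjusted p = 1e-08), Ifitm1 (1.5 ± 0.17, adjusted p = 4.38e-08) and Lgals9 (1.42 ± 0.16, adjusted p = 7.31e-08). In lung 1 was called higher and 17 lower, led by Ptpn6 (−0.65 ± 0.10, adjusted p = 0.000135), Cd274 (−1.30 ± 0.22, adjusted p = 0.000355), Zc3hav1 (−0.96 ± 0.19, adjusted p = 0.000992), Irf8 (−0.87 ± 0.18, adjusted p = 0.00164), Irf5 (−0.72 ± 0.15, adjusted p = 0.00200) and Tlr9 (−2.01 ± 0.45, adjusted p = 0.00303). Between 4HH and 3HH, Ccl5 (0.84 ± 0.22, adjusted p = 0.0304) and Ifitm3 (0.46 ± 0.13, adjusted p = 0.0371) were called higher in lung and Irf3 lower (−0.66 ± 0.19, adjusted p = 0.0462). In RV Epsti1 (1.12 ± 0.23, adjusted p = 0.0214), Zbp1 (1.23 ± 0.29, adjusted p = 0.0355), Ifitm3 (0.46 ± 0.11, adjusted p = 0.0356) and Ccl5 (0.73 ± 0.18, adjusted p = 0.0454) were called higher and none lower.

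Sp100 was the 1 pathway gene whose treatment effect differed between organs (0.86 ± 0.20, adjusted p = 0.0214). Neither organ had a call between males and females, the smallest p being that of Psme1 in lung (−0.42 ± 0.21, adjusted p = 0.884) and Ptpn6 in RV (0.61 ± 0.19, adjusted p = 0.758). For agreement of lung and RV, 1 of 64 pathway genes was called, Lgals9 (r = 0.681, adjusted permutation p = 0.0352), with a median r of 0.189, and Gbp4 had a higher r of 0.752 with an adjusted permutation p of 0.0519.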

How the data were processed

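Per the submitters' processing notes, reads were handled with FastQC, MultiQC 0.11.5, STAR 2.5, Subread and featureCounts 1.5.1 on the rat build rn6, and edgeR is named there as well. The deposited values are raw read counts per gene, made by the authors in 1 table for lung and 1 for RV, and library type, RNA integrity and batch come from the labels and deposited sheets. Handling of strand and of reads mapping to several places is not given in the sources used here. Entries without a symbol (22 in lung, 0.201% of counts, and 21 in RV, 0.156%) were left out.

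Counts were tested in edgeR 4.0.16 (R 4.3.3): filterByExpr (min.count 10, min.total.count 15), TMM scaling within an organ, robust quasi-likelihood fits with treatment and sex, or with 4 litter means and sex, and Benjamini-Hochberg adjustment over all genes tested. SE is the absolute log2 fold change divided by the square root of F. The organ difference used all 54 libraries with treatment and sex within organ and no term for the animal. Agreement used 100000 permutations within litters, in Python 3.11.15, and a pseudocount of 0.5 CPM. The edgeR fits of treatment and litter and the permutation test of agreement were tested on simulated data, and the other steps were not. CPM values rest on 1026832 to 23852403 counts in lung and 6104675 to 16298663 in RV, and precision was lowest for the smallest library, lung 6RARA66.

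The genes named were those called in a comparison, up to 12 by smallest p, and in each role those with the highest mean CPM and the smallest p in each organ. For agreement they were the 5 highest and 3 lowest r, and for pathway genes outside the set those called, up to 6 by smallest p. The genes, the pathway list and the marker lists were chosen with earlier results of these data known. Alternatives were DESeq2 1.42.0 with its size factors, no filter, other covariates, library batch (as the sheets number it), leaving out litters or libraries, voom with litter as a random effect (limma 3.58.1), counts summed per litter, and other measures of agreement.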

Additional observations from a re-analysis of the deposited data

Results flagged for a closer look

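Of 256 sets of values, each a gene of the 31 described or their mean in 1 litter and organ, 21 held an animal whose gap to the next animal, divided by the litter's range, exceeded Dixon's 95% critical value. Chance flags about 1 in 20 such sets. Most of these were lung 4HH39. Its mean of the 40 genes, 6.31 on the log2(CPM + 0.5) scale, was the highest of its litter, and so were Ifi27 at 1713 CPM, Mx2 at 355 CPM, Irf7 at 311 CPM, Isg15 at 194 CPM, Ifit2 at 153 CPM, Psmb9 at 144 CPM, Psmb8 at 123 CPM, Ifi27l2b at 116 CPM, Ifi35 at 101 CPM, Oas1a at 95.7 CPM, Igtp at 92.8 CPM and Oas1b at 53.4 CPM. In the same lung Stat2, at 57.9 CPM, and Parp14, at 35.2 CPM, were the lowest of the litter. The RV of that animal was highest of its litter for 25 genes, and none of its values there stood as far from its littermates. Summed T and NK cell markers were 407 CPM in lung 4HH39 and 144 to 201 CPM in the other lungs of the litter. Of these 13 markers, 9 were highest of the litter in it and 2, Cd4 and Tbx21, lowest. Summed neutrophil markers were 738 CPM in it and 98.8 to 342 CPM in the others (3 of 6 highest of the litter in it and Csf3r lowest). Summed endothelial markers were 727 CPM in it and 2701 to 4194 CPM in the others. Summed lung epithelial markers were 75083 CPM in it and 35950 to 43693 CPM in the others (8 of 10 highest in it and Sftpb lowest). Its library was a repeated preparation of batch 1 with an RNA integrity number of 7.9. The part of these in its values was not tested.

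Lung 6RARA66, the smallest library, was the lowest of its litter for Eif2ak2, at 45.1 CPM, and lung 6RARA68 was the highest for Isg15, at 52.2 CPM. Lung 4RARA45 was the highest of its litter for Psmb8, at 83.6 CPM, and Psmb9, at 87.5 CPM. RV 3HH27 was the lowest of its litter for Dtx3l, at 4.12 CPM, and RV 3HH30 was the highest for Gbp5, at 34.2 CPM.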

How the results depend on the processing

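Of the counts of genes called, 101 values under other settings stayed within 1.5 times the value reported and 39 did not, and the cause was not tested for any of those. The number called lower in H-H lung was 2 with DESeq2, 2 without 4HH, 4 without the libraries apart and 0 with library batch as a covariate, within batch 1, within batch 2, without 3HH, without 4RARA, with litter as a random effect and on counts summed per litter, and 2 were called higher without 4RARA. In H-H RV the number called lower was 12 with DESeq2, 2 without 4HH, 32 without 4RARA and 0 with batch as a covariate, within batch 1, within batch 2, without 3HH, without 6RARA, without the libraries apart, with litter as a random effect and on summed counts. Of all genes in RV, 7.39% were called in either direction with DESeq2, 0.46% without 4HH and 55.6% without 4RARA. The RV settings with 0 called at most 0.3% of all genes. In lung, 3.76% of all genes were called in either direction with DESeq2, 1.93% without 4HH and 10.1% without 4RARA. Within batches the median of the set was 0.37 in batch 1 and −0.04 in batch 2 for lung, and −0.54 and −0.72 for RV. Between 4HH and 3HH, DESeq2 called 10 higher in lung and 5 in RV, batch as a covariate 1 in lung, a fit of only these litters 0 in lung and 0 in RV, and the fit without the libraries apart 0 in lung. Of all genes, DESeq2 called 8.06% in lung and 3.77% in RV in either direction, and batch as a covariate 2.39% in lung. A fit of only these litters called 0.693% in lung and 0.0532% in RV, and the fit without the libraries apart 2.95% in lung. Between 6RARA and 4RARA, a fit of only these litters called 1 higher and 13 lower in lung, and in RV Ifit1 was the 1 gene called lower without a filter and in each fit that left out 1 library of 6RARA. That lung fit called 31.3% of all genes in either direction. For the treatment effect by organ, 34 were called without 4RARA, where 29.4% of all genes were called in either direction. With animal as a replicate block 2 were called, where 0.975% of all genes were. Replicate numbers otherwise pair no animals across treatments, which are different litters. Agreement of lung and RV was called for 8 genes by Spearman's rho and 4 with litter and sex means removed.

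Among single gene values that had a call, 386 kept it, 86 lost it and 1 turned: Ifit1 in lung, 0.0011 with an adjusted p of 0.999 within batch 1 (edgeR). Batch 3 could not be fitted, since it held too few libraries of 1 treatment. Litter is nested in treatment with 2 litters each, so a treatment effect and a litter effect cannot be told apart, and genes with few reads such as Ifit1 in RV are limited by depth.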
